A study of Mus musculus with 6 samples.

Results

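The genes described here encode the enzymes that add or remove methyl and acetyl groups on histones, measured in a mouse acute myeloid leukaemia in which the FLT3-ITD oncogene could be switched off. They were chosen by symbol. The rule took every row named Kmt, Kdm, Kat, Hdac or Sirt followed by a number, together with Ezh1, Ezh2, Eed, Suz12, Setd2, Nsd1, Ep300 and Crebbp. It left out Kmt2a, Kdm5c, Kdm5d and Kdm6a. The rule found 61 of the 53733 rows that name a gene, and 53 of the 61 had enough counts to be tested.

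The leukaemia was 1 line of murine foetal liver cells carrying 2 retroviral vectors, 1 with MLL-AF9 and luciferase under constant expression and 1 with FLT3-ITD and DsRED under a tetracycline-responsive promoter. All mice were immunodeficient NSG hosts that received these cells intravenously and were given doxycycline in food and water during 96 h of engraftment. For the last 48 h, 3 mice stayed on doxycycline (ON) and 3 were moved to ordinary food and water (OFF), so MLL-AF9 was present in both groups and loss of FLT3-ITD cannot be told apart from loss of doxycycline itself. Viable leukaemic cells were sorted from the bone marrow of each mouse, and their RNA was sequenced with a kit that reads the 3' ends of messenger RNA, giving 1 library per mouse.

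Histone lysine methylation is written by methyltransferases, most of which use S-adenosylmethionine, and is erased by demethylases that use either 2-oxoglutarate and iron or, in the LSD family, a flavin. Acetylation is written from acetyl-CoA by acetyltransferases such as EP300 and CREBBP and is erased by zinc-dependent histone deacetylases and by NAD-dependent sirtuins. Many of these proteins work inside large complexes, and several have been studied in MLL-rearranged leukaemia, in which the fusion protein recruits the H3K79 methyltransferase DOT1L. Not every member acts mainly on histones. Sirt3, Sirt4 and Sirt5 encode mitochondrial proteins, Hdac6 encodes a tubulin deacetylase and Hdac10 a polyamine deacetylase.

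The libraries held 8335234 to 9316361 counts on named genes, so 1 count equalled 0.11 to 0.124 CPM, the unit of level used here, in which counts are scaled by library size and TMM factor. The enzyme rows together took 0.223% to 0.239% of each library. The first principal component (70.1% of the variance) placed OFF replicates 1, 2 and 3 at 18.1, 34.2 and 41.3, with OFF replicate 1 nearest to the ON mice at -32 to -29.6. On the second component (13.3%), OFF replicate 3 stood apart at 24.3, against -20 and -11.7 for the other OFF mice and 0.289 to 6.06 for the ON mice. Results that it moves most are therefore also given without it. The endogenous Flt3 row, whose 3' end does not check the transgene, averaged 5.67 ± 0.167 CPM in ON and 6.83 ± 2.01 CPM in OFF mice (SD, n = 3 each), with an adjusted p of 0.387 in edgeR's quasi-likelihood test. All 10 myeloid leukaemia markers had counts, and their summed level was 1110 to 1190 CPM in ON and 1790 to 2020 CPM in OFF mice. Sums over 9 neutrophil markers ranged from 19600 to 21100 CPM in ON and from 16000 to 25100 CPM in OFF mice, and 6 of the 9 markers rose. Of the other 3, 2 were lower in each OFF mouse than in any ON mouse (-0.292 on the log2 scale for the larger fall). Neither had an adjusted p under 0.05 in that test. Sums over 8 erythroid markers ranged from 150 to 212 CPM in ON and from 577 to 933 CPM in OFF mice, and the 5 that were tested rose. Macrophage markers summed to 50.9 to 55.8 CPM in ON and 48.6 to 66.0 CPM in OFF mice, with Adgre1, Cd68 and Mrc1 higher and Vcam1 lower. Megakaryocyte markers summed to 32.3 to 37.1 CPM in ON and 54.9 to 63.8 CPM in OFF mice, with Gp1bb higher. The part of these marker shifts in the enzyme results was not tested. B cell markers (1.12 to 1.78 CPM) and T and NK cell markers (1.6 to 5.06 CPM) summed to low levels in all 6 libraries. In bulk RNA, a change in the share of cells of one kind and a change in the RNA per cell cannot be told apart.

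After withdrawal, 11 of the 53 tested enzymes rose, 6 fell and 36 did not pass an adjusted p of 0.05 in edgeR's quasi-likelihood test with Benjamini-Hochberg adjustment over all 13652 tested rows. The same test called 34.8% of all tested rows, 17.3% as higher and 17.5% as lower in OFF mice. The enzymes, at 32.1% called, were near that background, with 20.8% higher and 11.3% lower. Their changes were also small. The median log2 fold change (OFF minus ON) was 0.09 against 0.004 for all tested rows, and the median size without sign was 0.29 against 0.33. Changes ran from -0.85 for Kat2a to 1.45 for Hdac9, and only Hdac5 and Hdac9 passed the test with at least a 2-fold change, against 10.7% of all tested rows. The CPM ranges of ON and OFF mice did not overlap for 26 enzymes, 16 higher and 10 lower in OFF, where 48.3% of all tested rows had ranges apart (23.8% higher, 24.5% lower).

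Both counts depended on single libraries. Leaving out OFF replicate 2, or ON replicate 2 or 3, made the number of enzymes that rose 7. The number that fell was 2 without any of these libraries in turn and 3 without ON replicate 1. Without OFF replicate 3, 13 rose and 6 fell. Of the 17 enzymes that passed, Hdac5, Kat14, Kat2a, Kdm7a, Kmt2e, Kmt5c and Sirt7 passed in each of the 14 alternative fits, and the other 10 missed the threshold in at least 1. None of the 17 changed sign in any fit.

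**Figure D1:**
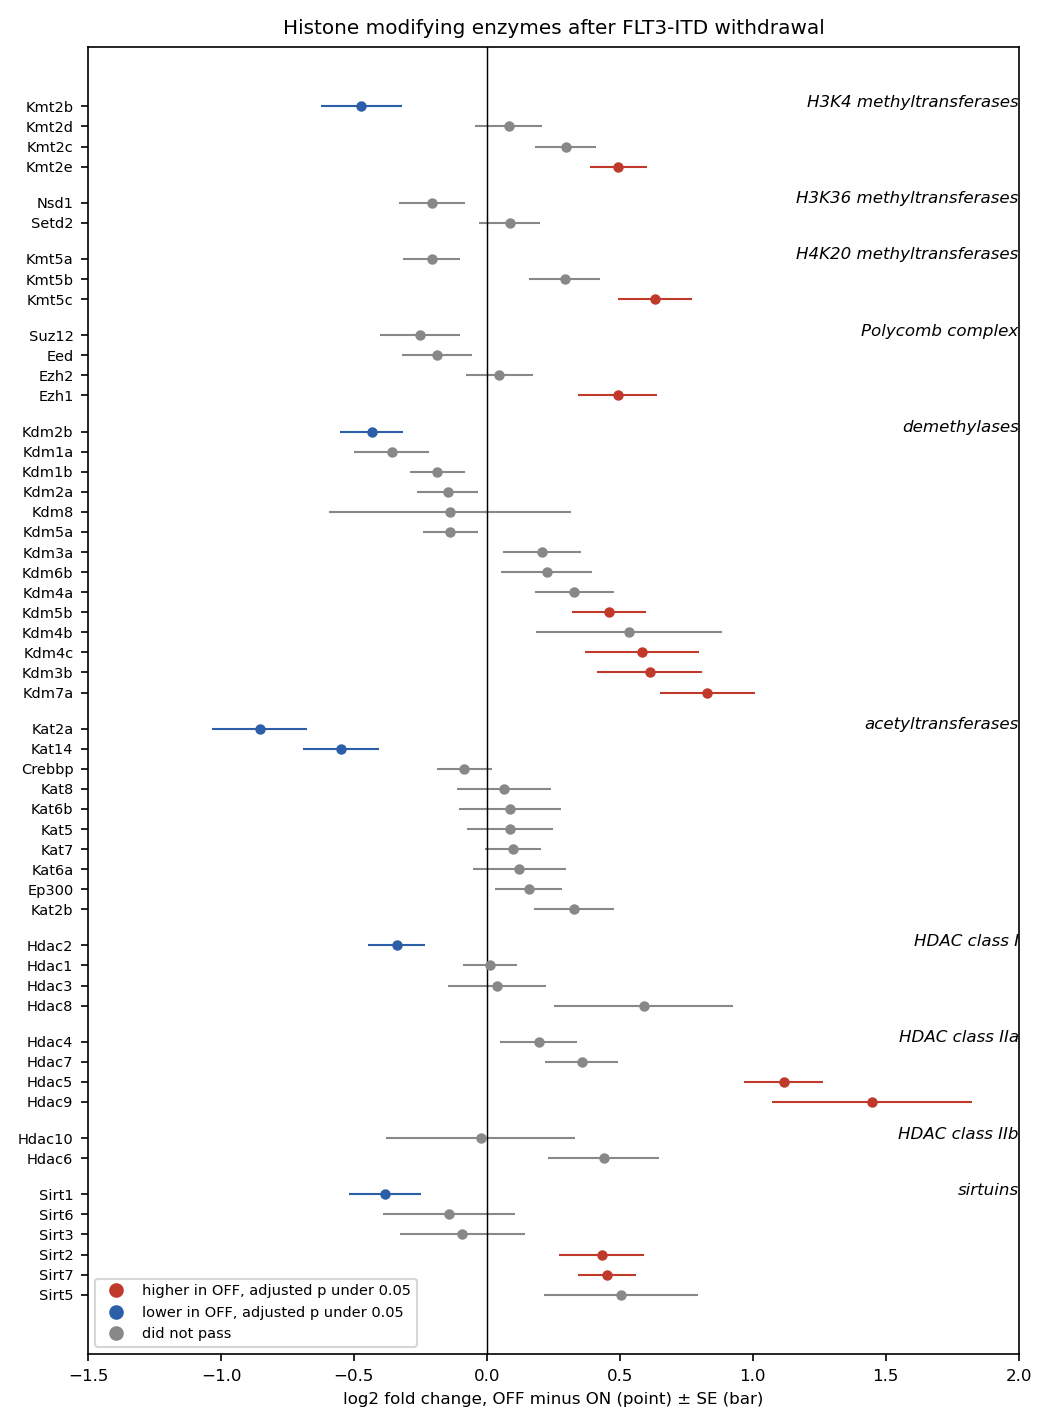
Log2 fold change (OFF minus ON, horizontal axis) of the 53 tested histone modifying enzymes, grouped by the reaction they catalyse, with bars of 1 standard error; red (higher) and blue (lower) points passed an adjusted p of 0.05 and grey points did not. Most points lie within 0.5 of zero, Hdac9 and Hdac5 lie farthest to the right at 1.45 and 1.12, and Kat2a lies farthest to the left at -0.85.

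Promoter sequence gave a further view of the enzymes that the rule did not use. RefSeq windows from 250 bases before to 50 after the start (GRCm38.p6) were found for 44 of the 61 members, in 63 promoters. Both strands were searched for the E-box CACGTG, the CCAAT box, the cAMP response element TGACGTCA and the STAT site TTCCNGGAA. CCAAT occurred in 42.9% of the members' promoters and in 37.4% of all 32851 promoters, CACGTG in 6.35% against 7.15%, TTCCNGGAA in 1.59% against 1.15%, and TGACGTCA in 0 of 63 against 1.79%. Over the 11107 promoters of tested genes the shares were 38.6% for CCAAT, 10.3% for CACGTG, 1.26% for TTCCNGGAA and 3.21% for TGACGTCA. The members' promoters were richer in bases G and C than all promoters, with a median of 61.3% against 52.7%, and held a median of 22 CG dinucleotides against 7. These medians were not compared with tested genes alone. The windows upstream of 5 enzymes that passed the test are printed below, 5' to 3' on the gene's own strand, because they show windows with a pair of one motif and, for Kat2a, a window with none of the 4 motifs. The Kdm4c window is that of the second of its RefSeq promoters. Capitals mark the E-box CACGTG and the CCAAT box, which reads ATTGG when it lies on the other strand.
Hdac5, chr11:102230173-102230422, minus strand: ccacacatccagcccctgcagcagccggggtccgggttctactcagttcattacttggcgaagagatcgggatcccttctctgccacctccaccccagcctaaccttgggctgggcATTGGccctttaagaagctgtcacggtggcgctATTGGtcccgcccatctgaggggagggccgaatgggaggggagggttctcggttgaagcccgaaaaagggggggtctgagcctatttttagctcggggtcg
Kmt5c, chr7:4739877-4740126, plus strand: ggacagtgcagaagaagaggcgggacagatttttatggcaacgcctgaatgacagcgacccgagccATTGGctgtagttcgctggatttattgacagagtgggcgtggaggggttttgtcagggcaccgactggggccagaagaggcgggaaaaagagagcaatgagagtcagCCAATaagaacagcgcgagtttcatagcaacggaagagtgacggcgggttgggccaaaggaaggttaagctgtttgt
Kdm4c, chr4:74251629-74251878, plus strand: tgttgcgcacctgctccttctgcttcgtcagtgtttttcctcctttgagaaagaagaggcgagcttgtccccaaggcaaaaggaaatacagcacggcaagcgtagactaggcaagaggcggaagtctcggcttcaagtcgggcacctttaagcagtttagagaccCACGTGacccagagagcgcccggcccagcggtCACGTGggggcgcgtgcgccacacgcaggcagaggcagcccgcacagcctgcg
Sirt1, chr10:63339036-63339285, minus strand: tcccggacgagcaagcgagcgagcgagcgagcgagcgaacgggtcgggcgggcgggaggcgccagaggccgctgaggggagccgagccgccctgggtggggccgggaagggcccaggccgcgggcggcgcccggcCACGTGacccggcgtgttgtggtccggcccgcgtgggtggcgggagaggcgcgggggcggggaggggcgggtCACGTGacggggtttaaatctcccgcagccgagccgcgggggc
Kat2a, chr11:100712468-100712717, minus strand: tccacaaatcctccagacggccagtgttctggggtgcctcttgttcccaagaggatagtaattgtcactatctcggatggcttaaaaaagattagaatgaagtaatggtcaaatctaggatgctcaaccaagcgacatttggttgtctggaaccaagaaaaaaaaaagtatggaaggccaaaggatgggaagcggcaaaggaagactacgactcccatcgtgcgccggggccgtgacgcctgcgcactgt
Each of these 2 motifs lay upstream of at least 1 enzyme that rose and at least 1 that fell. Pairs of CCAAT boxes lay upstream of Hdac5, Kmt5c and Sirt2, which rose. At least 2 also lay upstream of members that did not pass, among them Ezh2, Hdac4, Hdac6, Kat7 and Kmt5a. CCAAT occurred in 27.3% of the 11 promoters found for enzymes that rose and in 25.0% of the 8 found for enzymes that fell. In Kdm2b, which fell, 2 overlapping promoter windows held the same 1 box. Pairs of E-boxes lay upstream of Kdm4c, which rose, and of Sirt1, which fell, and Hdac5 held 1 just past its start. A match is a description of the sequence and not evidence of binding.

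Among the H3K4 methyltransferases, Kmt2e rose, Kmt2b fell, and Kmt2c and Kmt2d did not pass. Kmt2e, an MLL family member known for binding methylated H3K4 rather than for strong catalysis, measured 118, 118 and 110 CPM in the ON mice and 171, 170 and 146 CPM in the OFF mice. Every OFF value lay above every ON value, and the log2 fold change was 0.49 (SE 0.11, adjusted p = 0.00248). The 3' end of Kmt2e shares 972 exonic bases with Srpk2 on the opposite strand. Srpk2 also rose (log2 fold change 0.66, adjusted p = 3.52e-04), and as the strand setting of the counting is not given in the sources used here, reads from the 2 genes cannot be told apart. Kmt2b, which trimethylates H3K4 at promoters, was lower in all 3 OFF mice, with a log2 fold change of -0.47 (SE 0.15, adjusted p = 0.0264). That call was lost without any single library other than OFF replicate 3, and DESeq2 gave an adjusted p of 0.0597. Kmt2c and Kmt2d encode the enzymes that monomethylate H3K4 at enhancers. Kmt2c measured 54.0, 60.3 and 54.7 CPM in ON and 71.2, 75.4 and 60.9 CPM in OFF mice, ranges that did not overlap, yet its adjusted p was 0.0577 (log2 fold change 0.30); it passed with upper-quartile scaling (0.0421) and without OFF replicate 3 (0.00321). Kmt2d measured 30.7, 36.8 and 30.5 CPM in ON and 33.3, 38.6 and 31.8 CPM in OFF mice, with overlapping ranges and a log2 fold change of 0.08.

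Kmt5c was the H4K20 methyltransferase that rose. It encodes one of a pair of enzymes that convert monomethylated H4K20 to the di- and trimethylated forms found in heterochromatin. Its level was 13.8, 12.8 and 12.2 CPM in ON and 20.2, 21.6 and 18.3 CPM in OFF mice, a 1.55-fold higher fitted level (log2 fold change 0.63, SE 0.14, adjusted p = 0.00261) with no overlap between the groups. Its paralogue Kmt5b had a log2 fold change of 0.29 (adjusted p = 0.105), and Kmt5a, which places the first methyl group, had -0.21 (adjusted p = 0.147). Neither H3K36 enzyme passed. Setd2, which trimethylates H3K36 during transcription, had a log2 fold change of 0.09, and Nsd1, which dimethylates it, had -0.21. For both, OFF replicate 3 (135 CPM for Setd2, 74.4 CPM for Nsd1) was the lowest of the 6 libraries, and without it the log2 fold changes were 0.20 and -0.08, neither past the threshold. Without OFF replicate 1, Nsd1 passed as lower (-0.33, adjusted p = 0.0294).

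In Polycomb repressive complex 2, which methylates H3K27, Ezh1 rose while Ezh2, Eed and Suz12 did not pass. Ezh1 and Ezh2 are alternative catalytic subunits, EZH2 being the one typical of dividing cells. Ezh1 measured 11.9, 11.0 and 9.55 CPM in ON and 14.7, 15.3 and 15.8 CPM in OFF mice, so the groups were apart and the OFF mice were close together (log2 fold change 0.49, SE 0.15, adjusted p = 0.0178). Leaving out ON replicate 2 (adjusted p = 0.0579), ON replicate 3 (0.103) or else OFF replicate 2 (0.051) ended the call. Ezh2 measured 123, 118 and 124 CPM in ON and 142, 133 and 101 CPM in OFF mice. OFF replicates 1 and 2 lay above all ON mice and OFF replicate 3 below them, and the log2 fold change was 0.05 (adjusted p = 0.808). Without OFF replicate 3 it was 0.19 (adjusted p = 0.101). Suz12, the core subunit that holds the complex together, measured 351, 312 and 210 CPM in the OFF mice against 342 to 354 CPM in the ON mice. OFF replicate 1 lay inside the ON range and the other OFF mice below it, and the log2 fold change was -0.25 (adjusted p = 0.221), or -0.06 without OFF replicate 3. Without OFF replicate 1, Suz12 passed as lower (-0.41, adjusted p = 0.0223). Eed, the subunit that reads methylated H3K27, had a log2 fold change of -0.19 (adjusted p = 0.287).

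Of the 14 tested demethylases, 4 rose (Kdm7a, Kdm3b, Kdm4c and Kdm5b), Kdm2b fell, and the median log2 fold change was 0.22. The share called, 35.7%, was near the 34.8% of all tested rows. Only 1 rose without ON replicate 1 or ON replicate 3, and 2 without ON replicate 2 or OFF replicate 2. Kdm7a, an eraser of methyl groups at H3K9 and H3K27, changed most. It measured 16.0, 19.5 and 22.0 CPM in ON and 25.0, 35.5 and 41.4 CPM in OFF mice. The groups did not overlap although the OFF mice were spread widely, and the fitted level was 1.78-fold higher (log2 fold change 0.83, SE 0.18, adjusted p = 0.00290).

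Kdm3b, an H3K9 demethylase, measured 15.2, 16.7 and 18.5 CPM in ON and 28.1, 31.9 and 17.1 CPM in OFF mice. OFF replicate 3 lay inside the ON range, and the log2 fold change of 0.61 (SE 0.20, adjusted p = 0.0285) became 0.84 without that library and lost its call without any other single library. Kdm3b shares 3468 exonic bases, 35176 bases from its own 3' end, with Gm26538 on the opposite strand. Gm26538 also rose (0.72, adjusted p = 0.0169), and whether reads were shared between the 2 genes was not tested. Kdm4c, which acts on H3K9 and H3K36, measured 4.68, 3.76 and 4.96 CPM in ON and 7.22, 7.02 and 5.83 CPM in OFF mice. Its groups did not overlap, but its adjusted p of 0.0469 (log2 fold change 0.58, SE 0.21) was just inside the threshold and DESeq2 gave 0.113. Kdm5b, an H3K4 demethylase, had a log2 fold change of 0.46 (adjusted p = 0.0189), lost without ON replicate 1 (0.063) or ON replicate 3 (0.117). Kdm2b, an H3K36 demethylase that brings a Polycomb complex to CpG islands, fell by 0.43 on the log2 scale (adjusted p = 0.0104). Its adjusted p was 0.0585 and 0.058 when ON replicate 2 or 3 was left out, and 0.0542 without OFF replicate 2. Its 3' end shares 627 exonic bases with Rnf34 on the other strand, whose log2 fold change was -0.22 (adjusted p = 0.143).

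The flavin-dependent pair Kdm1a and Kdm1b did not pass. Kdm1a encodes LSD1, an H3K4 demethylase studied as a drug target in myeloid leukaemia. It measured 33.9, 31.8 and 34.1 CPM in ON and 31.3, 25.5 and 21.0 CPM in OFF mice, all 3 of the latter below the ON range (log2 fold change -0.36, adjusted p = 0.0616). Without OFF replicate 1 it passed (-0.52, adjusted p = 0.00423). Kdm1b measured 64.9, 63.4 and 66.6 CPM in ON and 56.4, 54.5 and 60.4 CPM in OFF mice, also apart, with a log2 fold change of -0.19 (adjusted p = 0.184). The remaining 7 tested demethylases had log2 fold changes from -0.15 (Kdm2a) to 0.53 (Kdm4b). Kdm6b, an H3K27 demethylase, measured 17.2, 20.8 and 29.2 CPM in the OFF mice, and Kdm4a measured 47.0, 53.6 and 70.7 CPM, so OFF replicate 3 was the highest for both. Without it their log2 fold changes of 0.22 and 0.33 were -0.01 and 0.15. Without OFF replicate 1, Kdm4a passed as higher (0.45, adjusted p = 0.0121).

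**Figure D2:**
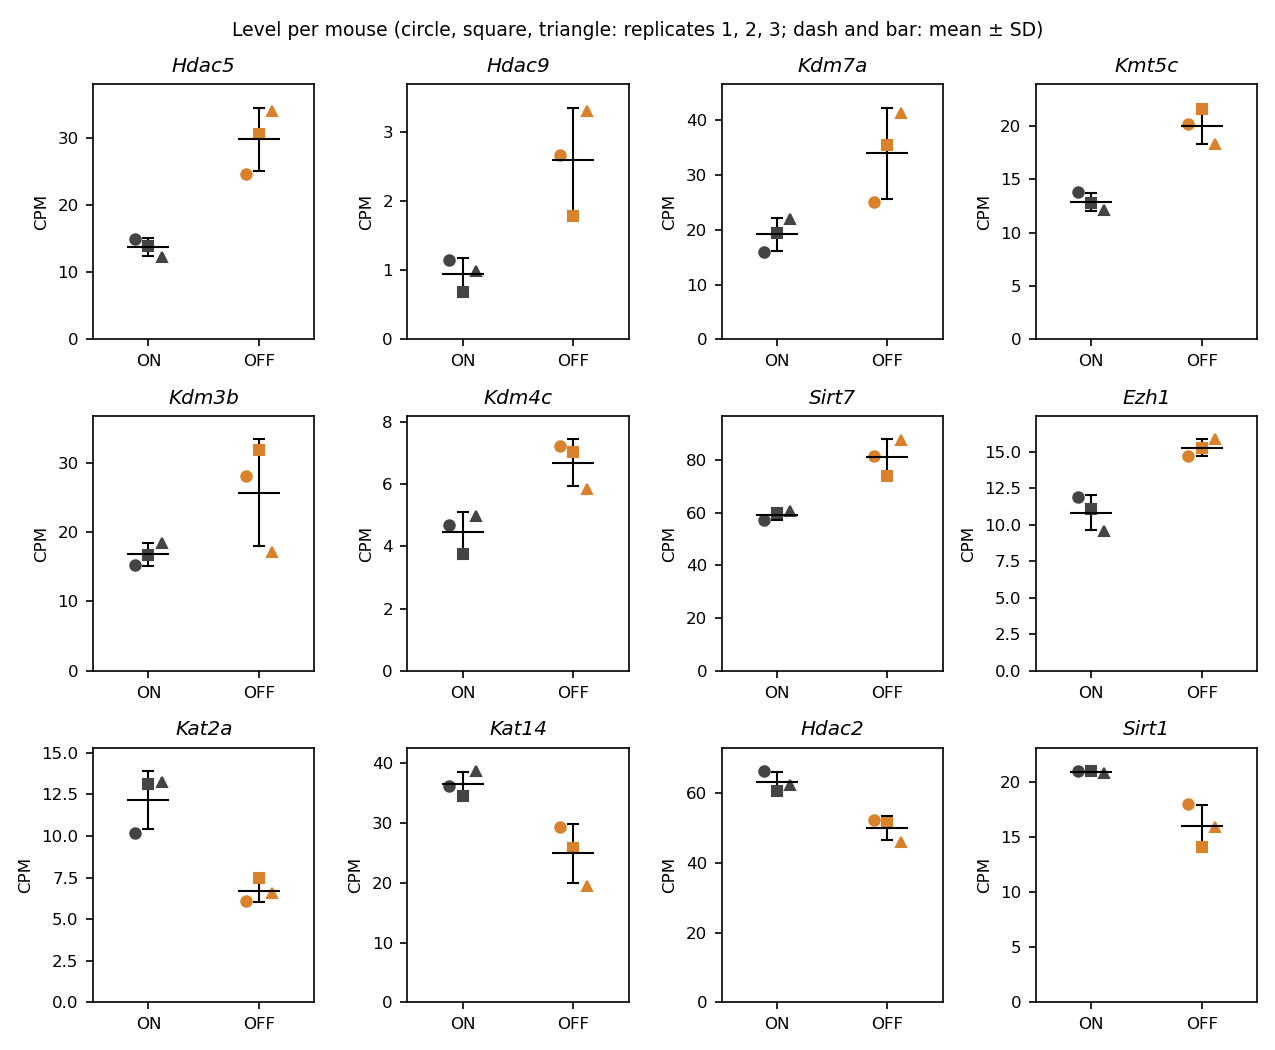
Level in each mouse (CPM, linear axes from 0) of 12 enzymes that passed the test, with replicates 1, 2 and 3 as circles, squares and triangles and the mean and SD as a dash and bar. ON and OFF points do not overlap in any panel but that of Kdm3b, where OFF replicate 3 (17.1 CPM) lies within the ON mice.

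Of the 10 acetyltransferases, 2 fell and none rose in edgeR's test, where 1 other enzyme of the group, Kat2b, had an unadjusted p under 0.05. The 20% that fell stood near the 17.5% of all tested rows that fell, and 34.8% of all tested rows were called in either direction. The number that rose was 2 without OFF replicate 3 and 0 in DESeq2. Both genes that fell, Kat2a and Kat14, encode subunits of the ATAC complex. Kat2a encodes GCN5, the acetyltransferase of the SAGA and ATAC complexes. It measured 10.2, 13.1 and 13.3 CPM in ON and 6.11, 7.46 and 6.60 CPM in OFF mice, a 1.81-fold lower fitted level (log2 fold change -0.85, SE 0.18, adjusted p = 0.00185). Kat14 measured 36.1, 34.5 and 38.7 CPM in ON and 29.3, 25.8 and 19.5 CPM in OFF mice (log2 fold change -0.55, SE 0.14, adjusted p = 0.00799). For both, each OFF mouse lay below each ON mouse, and the fall was called in every alternative fit. Kat14 shares 693 exonic bases, 33955 bases from its own 3' end, with Pet117 on the same strand, which also fell (-0.58, adjusted p = 0.0411). Whether reads were shared between them was not tested.

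A further 6 ATAC subunits, 5 from the list of acetyltransferase complexes and Wdr5 from that of COMPASS subunits, were singled out after these values were seen. They were not taken as the whole complex. Of them, 3 fell, 1 rose and Zzz3 (-0.24) and Sgf29 (0.03) did not pass, beside 17.5% lower and 17.3% higher among all tested rows, and nothing is read from a count chosen in this way. Tada2a, the adaptor specific to ATAC, fell by 0.51 on the log2 scale (adjusted p = 0.00600), the YEATS-domain subunit Yeats2 by 0.47 (adjusted p = 0.0126) and the WD-repeat protein Wdr5, which also belongs to other complexes, by 0.52 (adjusted p = 0.00148). Tada3, shared with SAGA, rose by 0.82 (adjusted p = 5.10e-04).

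Kat2b, which encodes the GCN5 paralogue PCAF, measured 15.3, 21.8 and 21.3 CPM in ON and 22.7, 27.2 and 23.4 CPM in OFF mice. Its groups did not overlap and lay in the opposite order to those of Kat2a, though it did not pass (log2 fold change 0.33, adjusted p = 0.107). The paired coactivator acetyltransferases moved little. Ep300 measured 77.7, 73.3 and 88.7 CPM in ON and 94.5, 98.9 and 73.7 CPM in OFF mice (log2 fold change 0.16, adjusted p = 0.367). OFF replicates 1 and 2 were above all ON mice and OFF replicate 3 was near the lowest of them, and without OFF replicate 3 the gene passed (0.28, adjusted p = 0.0259). Crebbp measured 63.3, 66.2 and 67.1 CPM in ON and 62.5, 63.9 and 58.9 CPM in OFF mice, with overlapping ranges (log2 fold change -0.08, adjusted p = 0.563). The MYST family genes Kat5, Kat6a, Kat6b, Kat7 and Kat8 had log2 fold changes between 0.07 and 0.12. Kat6a passed without OFF replicate 3 (0.33, adjusted p = 0.0255), which held 25.3 CPM against 39.3 and 44.4 CPM in the other OFF mice.

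Among the 10 tested histone deacetylases, Hdac5 and Hdac9, both of class IIa, passed as higher and Hdac2 of class I passed as lower. These are 20% higher and 10% lower, beside 17.3% and 17.5% of all tested rows. Of the 10, 8 had log2 fold changes above zero, as did 6876 of all 13652 tested rows. Class IIa enzymes have weak catalytic activity of their own, move between nucleus and cytoplasm on phosphorylation and bind MEF2 transcription factors. All 4 had log2 fold changes above zero, with a median of 0.74, and Hdac5 and Hdac9 passed. Hdac5 measured 15.0, 13.9 and 12.3 CPM in ON and 24.7, 30.6 and 34.0 CPM in OFF mice. The lowest OFF mouse was well above the highest ON mouse, and the fitted level was 2.17-fold higher (log2 fold change 1.12, SE 0.15, adjusted p = 5.68e-05), the smallest p-value of the 53 enzymes. Hdac9 was scarce, at 1.14, 0.683 and 0.992 CPM in ON and 2.67, 1.78 and 3.30 CPM in OFF mice. These values rest on 10, 6 and 8 counts in ON and 24, 16 and 30 counts in OFF mice. Its log2 fold change of 1.45 (SE 0.38, adjusted p = 0.00795) had the largest SE of the called enzymes, and without ON replicate 2 its adjusted p was 0.0541. Hdac7 (0.36, adjusted p = 0.0552) had no overlap between groups and Hdac4 (0.19, adjusted p = 0.327) overlapped.

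The class I deacetylases, catalytic subunits of corepressors such as SIN3, NuRD and CoREST, differed. Hdac1 measured 111, 118 and 122 CPM in ON and 116, 117 and 121 CPM in OFF mice, with a log2 fold change of 0.01 (SE 0.10, adjusted p = 0.943). Hdac2 measured 66.5, 60.6 and 62.4 CPM in ON and 52.3, 51.5 and 46.0 CPM in OFF mice. Every OFF mouse was lower than every ON mouse, and the log2 fold change was -0.34 (SE 0.11, adjusted p = 0.0244). Leaving out any ON library or OFF replicate 2 ended that call, with adjusted p-values of 0.0524 to 0.111. Hdac3 (0.04) and Hdac8 (0.59, SE 0.34) did not pass, nor did the class IIb genes Hdac6 (0.44, adjusted p = 0.117) and Hdac10 (-0.02). Without ON replicate 3, Hdac8 passed as higher (1.045, adjusted p = 0.0444). Hdac11 had 0 to 3 counts per library and was not tested.

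Among the sirtuins, Sirt7 and Sirt2 rose and Sirt1 fell. Of the 6 tested, these are 33.3% higher and 16.7% lower, beside 17.3% and 17.5% of all tested rows. Sirt7, a nucleolar enzyme that removes acetyl groups from H3K18, measured 57.1, 59.9 and 60.7 CPM in ON and 81.3, 73.8 and 87.7 CPM in OFF mice. The groups were well apart and the call was kept in every alternative fit (log2 fold change 0.45, SE 0.11, adjusted p = 0.00493). Sirt1, the nuclear deacetylase of histones and of many transcription factors, fell by 0.39 on the log2 scale (SE 0.14, adjusted p = 0.0381). Its ON mice were almost identical, at 20.9 ± 0.0886 CPM, and its OFF mice averaged 16.0 ± 1.92 CPM (SD, n = 3 each). The fall missed the threshold in 7 of the 14 alternative fits, among them DESeq2 (adjusted p = 0.0888) and the fits that left out any ON library or OFF replicate 2. Sirt2, a mainly cytoplasmic enzyme, had an adjusted p of 0.0497 (log2 fold change 0.43) that missed the threshold in 8 of the 14 fits, including DESeq2 (0.0871) and the fits that left out any library but OFF replicate 1. Sirt3 (-0.09), Sirt5 (0.50, adjusted p = 0.194) and Sirt6 (-0.14) did not pass. Sirt4 had 1 to 9 counts per library and was not tested.

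The 3' ends of Kdm1b, Kat5, Kat8, Hdac7 and Sirt3, none of which passed, also share exonic bases with a gene on the opposite strand, from 29 for Hdac7 to 505 for Kdm1b. None of those neighbours passed either.

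The other untested rows held almost no counts. Kdm4d had 1 count in all 6 libraries together, Kdm4dl had 0, which allows up to 0.372 CPM in a library at 3 counts, and the pseudogenes of Kat2b and Kat6b and the antisense row Kdm6bos had at most 2 in a library.

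Because paralogues can take one another's place, the balance of 6 pairs was measured within each library as the log2 ratio of CPM plus 0.5. Reads per gene depend on the 3' end, so only the change of a ratio between groups is read here and not its level. The Kat2a to Kat2b ratio shifted most, from -0.57, -0.71 and -0.66 in ON to -1.81, -1.80 and -1.75 in OFF mice, a difference of -1.14. The ON values lay within 0.15 of each other and the OFF values closer still. The Ezh2 to Ezh1 ratio was 3.32, 3.36 and 3.63 in ON and 3.24, 3.08 and 2.63 in OFF mice, a difference of -0.45 that was -0.27 without OFF replicate 3. The Hdac1 to Hdac2 ratio was 0.73, 0.96 and 0.96 in ON and 1.15, 1.18 and 1.38 in OFF mice, a difference of 0.35.

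The Kmt2d to Kmt2c ratio differed by -0.21, also without overlap. For these 4 pairs the exact two-sided permutation test gave p = 0.1, the smallest that 3 against 3 mice allow, and 0.15 after adjustment over the 6 pairs, so none could pass. The Ep300 to Crebbp ratio (0.23, exact p = 0.2, adjusted 0.24) and the Kdm1a to Kdm1b ratio (-0.18, exact p = 0.5, adjusted 0.5) overlapped between groups, and the latter was -0.0037 without OFF replicate 3.

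**Figure D3:**
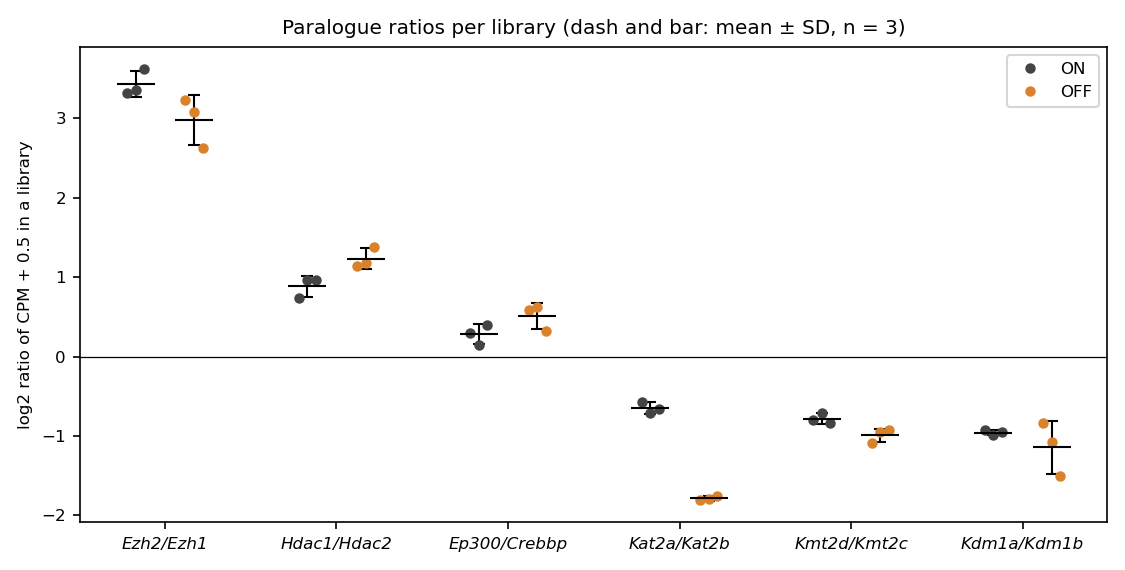
Log2 ratio of CPM plus 0.5 of 6 paralogue pairs in each mouse (vertical axis), with the mean and SD of ON and OFF mice. The Kat2a to Kat2b ratio falls from a mean of -0.65 to -1.79 with little spread in either group, and OFF replicate 3 sets much of the spread of the Ezh2 to Ezh1 and Kdm1a to Kdm1b ratios.

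The OFF mice varied more than the ON mice. The median SD of log2 levels over the 53 enzymes was 0.11 in ON and 0.15 in OFF mice, against 0.13 and 0.20 for all tested rows. OFF replicate 3 was the lowest OFF mouse for 22 enzymes and the highest for 16, together 71.7%, near the 75.8% of all tested rows.

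Genes that surround these enzymes were counted from lists of related enzymes, complex subunits, readers and cofactor metabolism, each read against the same background of 17.3% higher and 17.5% lower. The list of arginine methyltransferases, which methylate histones and RNA-binding proteins, had the most one-sided counts. Of its 8 tested genes, 7 encode methyltransferases and the other, Wdr77, encodes the partner of PRMT5. Of the 7 enzymes 5 fell, Wdr77 also fell and none of the 8 rose, with a median log2 fold change of -0.86 over the 8. The number of the 8 that fell was 5 or 6 with any one library left out. Prmt5, the main symmetric dimethylase, had mean levels of 65.0 CPM in ON and 31.0 CPM in OFF mice (-1.07 on the log2 scale, adjusted p = 3.69e-05), and fell with Wdr77 (-0.96, adjusted p = 4.81e-05) and with Prmt7 (-1.47, adjusted p = 7.43e-05), whose 3' end shares 247 exonic bases with Smpd3 (mean 1.26 CPM) on the opposite strand. Among 21 other lysine methyltransferases, 4 fell and 3 rose. The ones with the smallest p-values were Smyd5 (-1.30, adjusted p = 4.01e-04), the H3K9 enzyme Suv39h2 (-0.82, adjusted p = 4.87e-04) and Smyd2 (-0.90, adjusted p = 0.00279). The 3' end of Smyd2 shares 814 exonic bases with Gm37422 on the opposite strand, which also fell (-0.83, adjusted p = 0.00357), and their reads cannot be told apart. Dot1l, the H3K79 methyltransferase, named here because the line carries MLL-AF9, fell by 0.50 on the log2 scale (adjusted p = 0.00348). The number that rose was 0 when OFF replicate 2 or either of ON replicates 1 and 2 was left out, 1 without ON replicate 3 and 5 without OFF replicate 3.

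Among 13 subunits of the COMPASS complexes, which support the H3K4 methyltransferases, 4 fell and none rose. The 3 with the smallest p-values belong to the shared core or its SET1 form: Wdr5, given above, Dpy30 (-0.41, adjusted p = 0.0128) and Wdr82 (-0.41, adjusted p = 0.0220). The count was 1 when OFF replicate 2 or either of ON replicates 1 and 2 was left out, and 2 without ON replicate 3. Of 9 further subunits of Polycomb repressive complex 2, accessory ones together with Rbbp4 and Rbbp7, 3 fell, Rbbp7 among them (-0.34, adjusted p = 0.0173). Jarid2, which helps recruit the complex, rose from a mean of 105 CPM to 140 CPM (0.42 on the log2 scale, adjusted p = 0.00569). Aebp2, of the same form of the complex, fell by 0.44 (adjusted p = 0.00856). Without ON replicate 3 only 1 of these 9 subunits fell and none rose, and without OFF replicate 2 only 1 fell.

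The 47 subunits of acetyltransferase complexes split, with 7 higher and 10 lower. Kansl2 of the NSL complex, which carries KAT8, fell from a mean of 34.5 CPM to 17.4 CPM (-0.99 on the log2 scale, adjusted p = 4.50e-05), Jade2 of the KAT7 complex rose by 1.14 (adjusted p = 3.47e-04) and the SAGA subunit Taf6l rose by 0.80 (adjusted p = 3.60e-04). Only 4 rose in DESeq2 or without any single library but OFF replicate 1 or OFF replicate 3, and 6 fell without ON replicate 3. Of 32 tested corepressor subunits, 7 fell and 1 rose. Among those that fell were Mta1 of the NuRD complex (-0.71, adjusted p = 5.73e-04) and Cdk2ap1 (-0.54, adjusted p = 0.00131). The number that rose was 6 without OFF replicate 3 and 0 without ON replicate 2 or OFF replicate 2, and the number that fell was 4 without OFF replicate 2. Of 14 tested readers of acetyl-lysine, 3 rose (Brd3, Brd9 and Baz2b, log2 fold changes 0.35 to 0.41) and Trim28 fell by 0.30. The number of readers that rose was 0 without ON replicate 2, 1 when OFF replicate 2 or either of ON replicates 1 and 3 was left out, and 5 without OFF replicate 3. The fall of Trim28 was lost in DESeq2 and on leaving out any ON library or OFF replicate 2.

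Lists of genes around the cofactors, which held suppliers and also some genes that use the cofactor or lie near it in metabolism, changed as follows. For S-adenosylmethionine, the methyl donor, 3 of 7 genes fell and none rose, and all 7 lay below zero (median -0.45). The synthetase Mat2a fell from 189 to 99.1 CPM (adjusted p = 4.45e-05), followed by Ahcy (-0.47, adjusted p = 0.00922) and Mtr (-0.42, adjusted p = 0.0127). For NAD, used by the sirtuins, 4 of 11 fell and none rose (2 rose with upper-quartile scaling). The falls were led by Nmnat1, which encodes a nuclear enzyme of NAD synthesis, from a mean of 27.6 CPM to 13.1 CPM (-1.08, adjusted p = 5.01e-05). Parp1 fell by 0.54 (adjusted p = 0.00578) and Cd38, both consumers of NAD, by 1.29 (adjusted p = 0.00833). For acetyl-CoA, 1 of 7 fell (Dlat, -0.57, adjusted p = 0.00604) and 1 rose (Acss1, from 0.460 to 1.70 CPM). The rise of Acss1 was lost without ON replicate 3. On the list for 2-oxoglutarate, which also held Ogdh, Fh1 and the Sdh genes, 4 of 16 fell and 2 rose. Psat1, a serine synthesis enzyme that also yields 2-oxoglutarate, fell by 1.68 (adjusted p = 1.03e-06), Idh3a fell by 0.92 (adjusted p = 3.02e-05) and Idh1 rose by 0.99 (adjusted p = 3.72e-05). Only 1 rose in DESeq2 and when OFF replicate 2 or either of ON replicates 2 and 3 was left out.

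**Figure D4:**
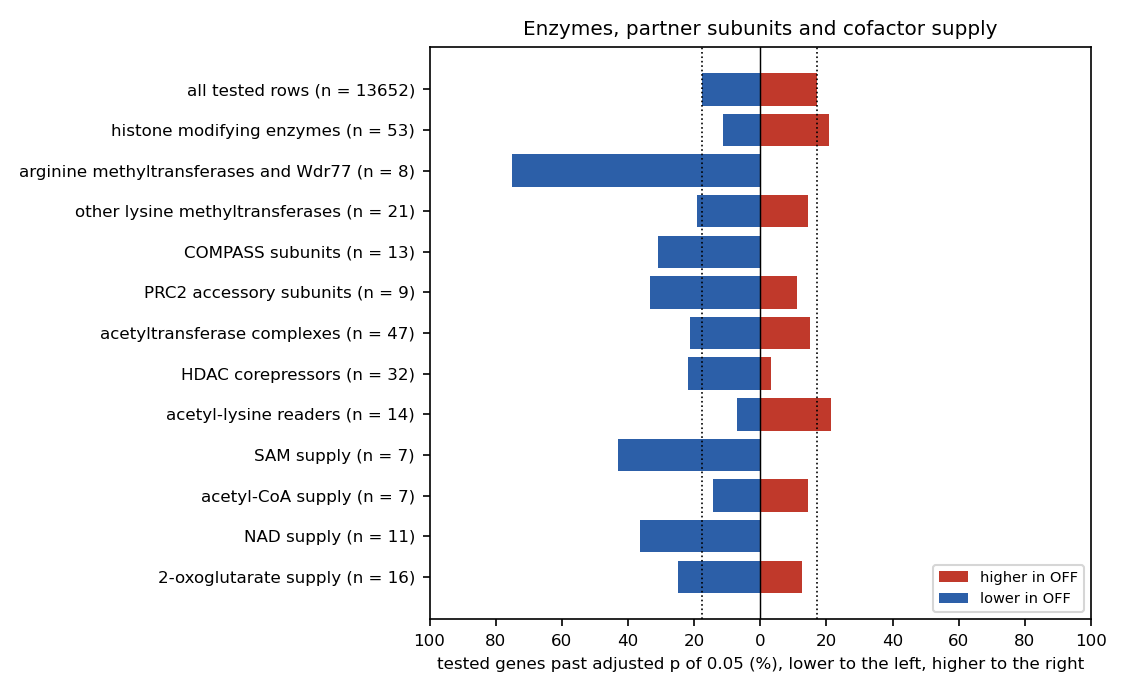
Share of tested genes (percent, horizontal axis) higher and lower in OFF mice at an adjusted p under 0.05, for the histone modifying enzymes, each related list and all tested rows, whose shares the dotted lines repeat. The enzymes, with 20.8% higher and 11.3% lower, sit near all tested rows, and the list of arginine methyltransferases with Wdr77 stands at 75% lower and 0% higher.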

How the data were processed

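Bone marrow leukaemia cells from 3 ON and 3 OFF mice were measured by QuantSeq 3' mRNA sequencing. Raw counts per gene were deposited by the authors, and per the submitters' processing notes reads were handled with HISAT2 2.0.4, cutadapt 1.9.1, featureCounts of Subread 1.6.3 and limma 3.42.2, on build mm10. The sources used here do not give the annotation, the strand setting or the treatment of multimapping reads. A further deposited file is the authors' log2 table of 12287 rows, used for 1 alternative. Of 54838 rows, 1105 without a gene name (0.145% to 0.172% of counts) entered neither library sizes nor tests.

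Main values came from edgeR 4.0.16 in R 4.3.3, with TMM scaling, filterByExpr (minimum count 10, minimum total 15), robust quasi-likelihood fits and Benjamini-Hochberg adjustment over 13652 rows at 0.05. The SE is the log2 fold change over the square root of its F statistic. Replicates are separate mice. On simulated data, edgeR recovered 86 of 100 genes changed 2-fold and 36 of 100 changed 1.5-fold. Alternatives were DESeq2 1.42.0, limma 3.58.1 with voom, other scalings and filters, and each library left out; recounts of the lists were chosen after seeing the data.

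The members and lists were chosen with earlier results of these data known. Every member may be named. Values per mouse are given for members past the threshold with a log2 change of at least 0.5, the smallest p in each family, and the 6 pairs, and for other members where a sentence turns on them. Of each list, up to 3 called genes with the smallest p are named, with Dot1l and the ATAC subunits added after seeing the data. One gene that this rule takes is not reported here. Exon overlaps used GENCODE on GRCm38. No protein sequences were used here.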

Additional observations from a re-analysis of the deposited data

How the results depend on the processing

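The number of enzymes that rose (11) was 9 with DESeq2, voom or the authors' log2 table, 10 with no filter, 11 at 10 CPM in 3 libraries, and 13 with upper-quartile scaling or without ribosomal RNA rows; leaving out each library gave 7 to 13. The number that fell (6) was 4 to 7 over those settings and 2 to 8 over the left-out libraries. Over all tested rows, 4746 calls became 3293 to 5444 when a library was left out. Deviations from the group means had correlations of 0.0425, -0.0989 and -0.0646 between ON and OFF mice with the same number. Between mice with unlike numbers they were -0.0454 to 0.109. With 3 mice a group, these values cannot settle whether the numbers pair the mice. With the replicate number as a block, 4403 rows passed over the whole table, 10 enzymes rose and 5 fell, and Kdm4c and Sirt1 no longer passed. None of the 17 called enzymes changed sign. Of the 36 others, 10 did: Hdac1 with no filter (-0.006319), and Hdac10 with upper-quartile scaling (0.007627) or voom (0.02855). With a library left out, the log2 fold changes ranged from -0.05526 to 0.1862 for Ezh2, -0.02658 to 0.0358 for Hdac1, -0.2636 to 0.2191 for Hdac10, -0.07823 to 0.1152 for Hdac3, -0.04872 to 0.3293 for Kat6a, -0.03397 to 0.2082 for Kat8, -0.006951 to 0.3819 for Kdm6b, -0.8692 to 0.2693 for Kdm8, -0.005236 to 0.1758 for Kmt2d and -0.1814 to 0.01998 for Sirt3. The cause of these changes was not tested. Of the same 36, 10 passed in at least 1 setting, Kat6a among both. With 3 mice a group, 1.5-fold changes were often missed in the simulated data. Far fewer genes changed there than the 34.8% called here, so the share recovered does not carry over. An enzyme that did not pass is not shown to be unchanged.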
